A study of Homo sapiens with 4 samples.

Results

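The PDZ-LIM genes examined here were PDLIM1, PDLIM2, PDLIM4, PDLIM5 and PDLIM7, which were 5 of the 13328 genes named in the 2 peak lists of the series. Counts given for the family below cover these 5 alone. Other genes that join PDZ and LIM domains, PDLIM3 and LDB3 among them, are given further below with the relatives. A peak was taken as belonging to one of them when the list gave it that gene's NCBI Gene ID, and each genome position was counted once. This left 32 of 63507 PABPC4 positions and 7 of 9107 HNRNPC positions. All samples came from MDA-MB-231, a widely used breast cancer cell line that is triple-negative and mesenchymal in character, and were crosslinked with ultraviolet light at 400 mJ/cm2 and 254 nm, with no treatment and no other genotype. HNRNPC CLIP and PABPC4 PAPERCLIP had 2 samples each, and the samples of a protein were merged into 1 peak list. There was therefore no spread between replicates and no comparison of conditions, and every interval below covers counting error alone.

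PDZ-LIM proteins join a PDZ domain, which in this family binds alpha-actinin and other proteins of the actin cytoskeleton, to LIM domains, zinc-binding modules that recruit kinases and other partners. PDLIM5 and PDLIM7, also called Enigma homolog and Enigma, carry several LIM domains at the C terminus, whereas PDLIM1, PDLIM2 and PDLIM4 carry a single one. The LIM domains lie at the C terminus of these proteins, so a transcript that stops before their exons encodes a PDZ protein without them. HNRNPC is a nuclear protein that binds runs of uridine, mostly in introns. PABPC4 is a poly(A)-binding protein that shuttles between nucleus and cytoplasm, and PAPERCLIP reads the bound fragments from a primer that anneals to their poly(A) stretch, so that a peak is meant to end where the transcript ends. The study took PDLIM5 up as a target of HNRNPC for closer work, and these lists show where both proteins crosslinked in it and in its relatives.

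A primer made of a run of T, 15 of them here, can also anneal to A letters that are written in the genome. Each PABPC4 peak was therefore read together with the bases after it, where an A-rich stretch means 6 A in a row or 7 A within 10 bases, starting within 50 nucleotides (nt) of the peak's 3′ end. It was also read for a poly(A) signal, AAUAAA or AUUAAA, in the last 40 nt up to its end, and for an annotated transcript end of its own gene (GENCODE 44) within 50 nt. The start of a signal is counted back from the peak's last base, which is taken as 1. The stretches below are printed 5′ to 3′ in genome letters of hg38, with the poly(A) signal or the A run in capitals, because they separate the kinds of end found in the family.
PDLIM5 distal end, chr4:94668197-94668226 (+): ataAATAAAtgactgcattgttgtaaatga
PDLIM5 proximal end, chr4:94665477-94665506 (+): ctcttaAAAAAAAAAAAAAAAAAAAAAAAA
PDLIM5 just after that run, chr4:94665506-94665535 (+): agagagagagagAATAAAtagaaaagaatg
PDLIM5 intron end, chr4:94486700-94486729 (+): gaaAATAAAaaaacagattaggccaggtgc
PDLIM1 end, chr10:95237566-95237595 (-): ctcAATAAAtgtatagactacaaagcagtg
PDLIM7 distal end, chr5:177483389-177483418 (-): cacAATAAAcctgtacccagctgtgtcttg
PDLIM7 short end, chr5:177490248-177490277 (-): ccttgggcatggAATAAAcattctcagccc
PDLIM4 end, chr5:132272303-132272332 (+): tctAATAAAgctcctctgctccaccttgaa
In the distal PDLIM5, PDLIM1, PDLIM7 and PDLIM4 stretches, the signal lies inside the peak, before its 3′ end. In the proximal PDLIM5 stretch, the peak's last base is the a before the capitals, and in the short PDLIM7 stretch the signal follows the end of the peak.

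PDLIM5 (chr4:94451857-94668227, plus strand, 216371 nt) held 24 of the family's 32 PABPC4 peaks and 2234 of its 2904 summed tags, where a peak's height is the number of tags at its highest point. Of the 13189 gene IDs in the PABPC4 list, 264 (2%) had more peaks than PDLIM5, and the median ID had 3. PDLIM7 had 4 peaks summing to 265 tags, PDLIM2 had 2 peaks summing to 45 tags, PDLIM1 had a single peak of 316 tags, and PDLIM4 had a single peak of 44 tags. By length, PDLIM7 was the densest, with 28.1 peaks per 100 kilobases (kb), against 11.1 in PDLIM5, 10.1 in PDLIM2, 6.35 in PDLIM4 and 1.87 in PDLIM1. Heights reflect both how much of an mRNA was present and how much of it was bound, and these cannot be told apart in the lists.

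**Figure D1:**
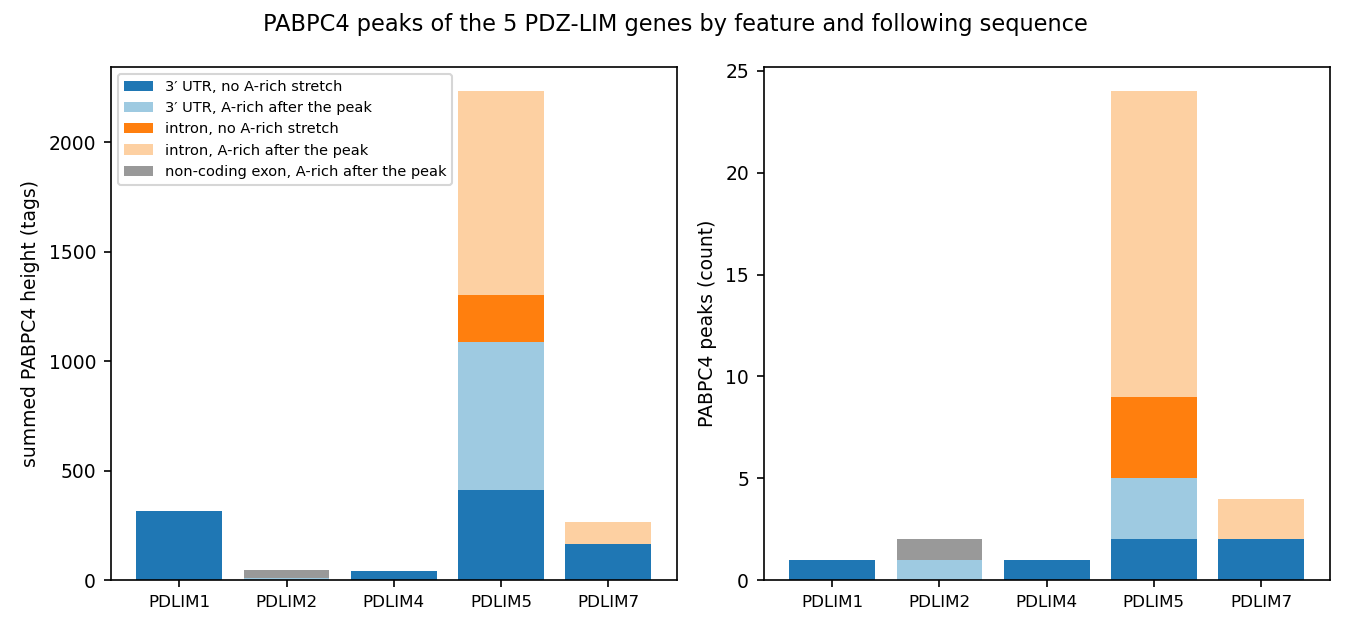
Summed PABPC4 peak height in tags (left) and number of PABPC4 peaks (right) for the 5 PDZ-LIM genes, stacked by the feature at the peak's centre and by whether an A-rich stretch follows the peak. PDLIM5 reached 2234 tags in 24 peaks, most of them in introns and before A-rich stretches, whereas the only peaks of PDLIM1 and PDLIM4 were 3′ UTR peaks with no A-rich stretch.

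Across the family, 22 of the 32 PABPC4 peaks lay before an A-rich stretch. Introns held 21 of the 32, and 17 of these lay before one (81.0%, interval 58.1 to 94.6). Over the list, 71.2% of PABPC4 intron peaks and 31.9% of PABPC4 3′ UTR peaks did, so the family's intron share was near that of the list. Of the 10 peaks in 3′ UTRs, 7 ended within 50 nt of an annotated transcript end of their gene, and 54.8% of all 18917 PABPC4 3′ UTR peaks lay that close to an annotated end of any gene. Peaks that met this, or that had a poly(A) signal and no A-rich stretch, formed 8 ends when those within 50 nt of each other were merged, 3 in PDLIM5, 2 in PDLIM7 and 1 each in PDLIM1, PDLIM2 and PDLIM4. Across the list, 36.5% of the 9810 gene IDs with an end had 2 or more. With every peak taken as an end, without this filter, the family would have 32.

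The last exon of PDLIM5 begins at 94663978 and holds a 3′ UTR of 4163 nt after the last coding base, stop codon included. PABPC4 had 4 peaks in this exon, with heights of 298, 224, 331 and 187 tags in the order of transcription. The first peak (94664033-94664103) spans the stop codon and ends 39 nt after the last coding base, before an A-rich stretch, with no signal in its last 40 nt and no annotated end within 50 nt. The next peaks (94665347-94665430 and 94665435-94665482) are neighbours whose 3′ ends are 52 nt apart, so tags may be shared between them. The last (94668174-94668220) is the distal end.

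The tallest PDLIM5 peak, with 331 tags, stood at the proximal end. Its last base, 1418 nt after the last coding base, is followed by 24 A in a row in the genome. An A run of 24 or more followed 88 of 18917 PABPC4 3′ UTR peaks (0.465%). The peak had no AAUAAA or AUUAAA in its last 40 nt, and the first one after it starts 36 nt past its end, beyond the run. GENCODE nevertheless places 3 transcript ends there, those of PDLIM5-204 at 94665481, PDLIM5-221 at 94665500 and PDLIM5-219 at 94665501, the latter 2 inside the run itself. Among the 10367 PABPC4 3′ UTR peaks within 50 nt of an annotated end, 13.8% lay likewise before an A-rich stretch with no signal. Whether the tags of this peak came from a poly(A) tail added there or from the run in the genome was not tested.

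The distal PDLIM5 peak, of 187 tags, had the opposite features. It ends 4156 nt after the last coding base and 3 nt before the annotated end of PDLIM5-201, with an AAUAAA starting 21 nt before its end and no A-rich stretch after it. Of the 10367 peaks at annotated ends, 56.8% shared this combination. The 3′ UTR of PDLIM5 contains 16 AAUAAA or AUUAAA hexamers, and the 2 that start in the 40 nt before a PABPC4 peak end both belong to the distal end. The neighbour of the proximal peak, with 224 tags, had neither an A-rich stretch nor a signal, and the nearest annotated end was 51 nt downstream. The genomic A run at the proximal end begins just beyond the 50 nt window of this neighbour. Whether the neighbour's tags came from that run was not tested.

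The proximal end took 331 of the 518 tags at the first peak after each of the study's 2 forward 3′ RACE primers, that is 63.9% (95% exact Clopper-Pearson interval, 59.6 to 68.0). The peaks end 54 nt after the proximal primer and 217 nt after the distal primer. When all peaks that end within 1000 nt after a primer were summed, the 224-tag neighbour joined the proximal side and the share was 74.8% (71.5 to 77.9). Without peaks before an A-rich stretch, no peak lies wholly between the 2 primers and the first rule gives no share, whereas the summed rule leaves the 224-tag neighbour and gives 54.5% (49.5 to 59.4). Within the last exon, peaks with no A-rich stretch held 411 of 1040 tags, or 39.5% (36.5 to 42.6). The 54.5% and the 39.5% both count the 224-tag neighbour, whose 50 nt window stops just short of the A run.

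**Figure D2:**
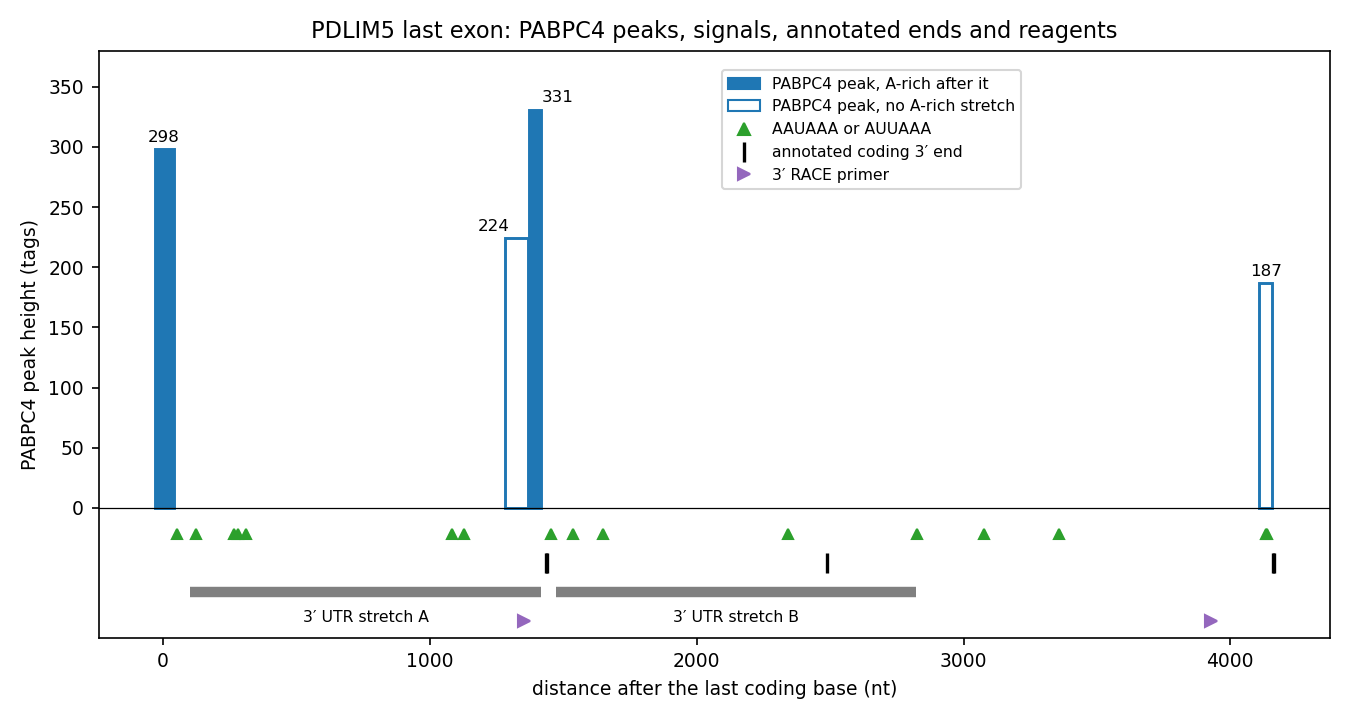
PABPC4 peaks in the last exon of PDLIM5, with the distance after the last coding base in nt on the x axis and peak height in tags on the y axis. Bars are peaks drawn to their width, filled where an A-rich stretch follows, and rows below 0 mark AAUAAA or AUUAAA hexamers, annotated ends of coding transcripts, the 3′ UTR stretches (A and B) between the study's PCR primers, paired in the order listed as an assumption, and its 3′ RACE primers. The 331-tag bar stands at the end of stretch A, and the 187-tag bar stands at the distal end, where 2 hexamers overlap on this scale.

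The study's own reagents map onto these peaks, and the 2 RACE primers are shown because they differ in how often they occur in the genome.
Proximal primer, chr4:94665408-94665428 (+): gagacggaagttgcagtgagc
Distal primer, chr4:94667984-94668003 (+): gatctggcttccatttgtcc
The proximal primer lies inside the 224-tag peak. Its 21 bases occurred 179 times in hg38 without a mismatch and 97081 times with up to 2 mismatches, counting both strands. The distal primer occurred once without a mismatch and 14 times with up to 2. Which of the PCR primers for the 3′ UTR were used together is not given in the sources used here. Paired in the order listed, which is an assumption, they span 100 to 1417 nt (stretch A, 1318 nt) and 1471 to 2823 nt (stretch B, 1353 nt) after the last coding base. Stretch A takes in the 224-tag peak whole and all but the last base of the 331-tag peak. Stretch B holds no PABPC4 peak and 3 hexamers. The 53 nt between them hold the A run and the AAUAAA that follows it, and neither stretch overlaps an HNRNPC peak.

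Early ends of PDLIM5 were looked for at each annotated transcript. Its 14 coding transcripts fell into 5 that encode 3 LIM zinc patterns and end in the last exon, PDLIM5-207 with 2 such patterns, and 8 with none. Of the 8 transcripts without a LIM pattern, 3 end near the start of the gene (PDLIM5-217, PDLIM5-208 and PDLIM5-203) and 4 share a terminal exon that starts at 94586989. The shared exon carried a PABPC4 peak of 49 tags (94587179-94587226). This peak had no signal in its last 40 nt, lay before an A-rich stretch and ended 60 nt before the nearest annotated end, that of PDLIM5-218, so it did not count as an end at the 50 nt tolerance and did at 100 nt. The ends further on in that exon, at 94588127 and 94588216, had no PABPC4 peak, and neither had the ends at 94455542, 94456164, 94457184 and 94575938. No PABPC4 peak of PDLIM5 thus ended within 50 nt of an annotated end that lacks the LIM domains.

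Introns held 19 of the 24 PABPC4 peaks of PDLIM5 and 1145 of its 2234 tags, leaving 48.7% (46.7 to 50.8) for its 3′ UTRs. Their heights ran from 18 to 124 tags with a median of 56, above the median of 35 over all PABPC4 intron peaks and below all 4 peaks of the last exon. An A-rich stretch followed 15 of the 19 (78.9%, interval 54.4 to 93.9), where 71.2% of all 38250 PABPC4 intron peaks had one, so the share in PDLIM5 was near that of the list. The introns are numbered along PDLIM5-206, in which introns 2 and 3 span 31.6% and 22.9% of the gene. They held 9 peaks in intron 2, 3 in intron 3, 1 in intron 6, 5 in intron 7 and 1 in intron 8. The 2 tallest, of 124 tags (94461797-94461836) and 122 tags (94460546-94460619), stood in intron 2 and lay before A runs of 7 and 12.

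The 4 PDLIM5 intron peaks with no A-rich stretch differed among themselves. The peak of 24 tags at 94486685-94486732 had an AAUAAA starting 30 nt before its end, a combination found in 2.12% of all PABPC4 intron peaks. It was the only intron peak of the family that counted as an end, at no annotated transcript end, and the nearest was 29548 nt upstream. The peaks of 50 tags (94460434-94460481) and 34 tags (94548950-94548996) had no AAUAAA or AUUAAA and counted as ends only when 12 signal variants were allowed. The peak of 107 tags (94478184-94478198) was 15 nt wide and had no variant. The 48 nt up to its end had 1845 further near-copies in hg38 with up to 2 mismatches, the most of any PABPC4 peak of the family, so its tags cannot be placed with certainty. Of the 32 PABPC4 peaks, 27 had no such near-copy, the 4 of the PDLIM5 last exon among them.

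**Figure D3:**
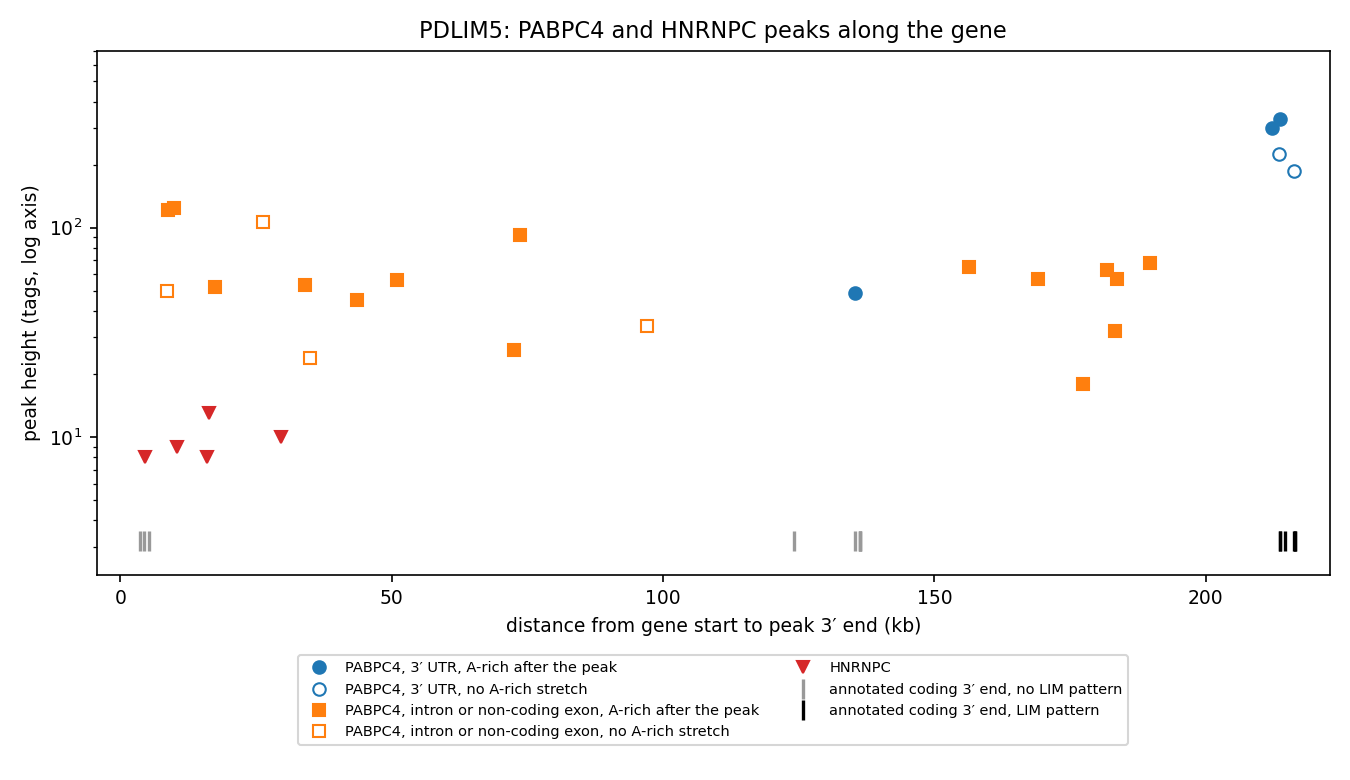
PABPC4 and HNRNPC peaks along PDLIM5, with the distance from the gene start to the peak's 3′ end in kb on the x axis and peak height in tags on a log y axis. Filled markers have an A-rich stretch after the peak, and ticks at the bottom are annotated ends of coding transcripts, grey without and black with a LIM pattern. The 5 HNRNPC peaks (8 to 13 tags) stand in the first 30 kb, and the 4 tallest PABPC4 peaks stand in the last exon.

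PDLIM1, which encodes a protein with 1 LIM domain also known as CLP36, showed the simplest pattern. Its only PABPC4 peak (chr10:95237573-95237656, minus strand, 316 tags) ended 1 nt before the annotated end of PDLIM1-201, its only coding transcript. The peak had an AAUAAA starting 20 nt before its end and no A-rich stretch. The tallest 3′ UTR peak of 51.6% of the 9891 gene IDs with one had a signal and no A-rich stretch, and in this family it did in PDLIM1, PDLIM4 and PDLIM7. PDLIM1 was thus close in height to the proximal end of PDLIM5. With only 1 listed peak, it held all of its 316 tags at 1 end by construction.

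PDLIM7, which like PDLIM5 carries 3 LIM patterns in its full-length transcripts, had a distal end and a short end. The distal peak (chr5:177483395-177483430, minus strand, 141 tags) ended 1 nt before the annotated end of PDLIM7-202 and PDLIM7-203, with an AAUAAA starting 21 nt before its end. The short end (177490289-177490335) had 22 tags and lay in the terminal exon of PDLIM7-201, a transcript of 222 codons with no LIM pattern. It ended 43 nt before the annotated end of that transcript, and an AAUAAA starts 24 nt after it, before the annotated end. The distal end held 141 of the 163 3′ UTR tags of the gene, or 86.5% (80.3 to 91.3). The other 2 PABPC4 peaks of PDLIM7, of 59 and 43 tags, were in intron 10 of PDLIM7-203 and lay before A runs of 27 and 13. The further 5 coding transcripts of PDLIM7 without a LIM pattern had no PABPC4 peak in their terminal exon.

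PDLIM4, also known as RIL, ended early within its last exon. Its only PABPC4 peak (chr5:132272302-132272337, 44 tags) ended 111 nt after the last coding base, 1117 nt before the distal annotated end of PDLIM4-201, the transcript that encodes the LIM domain. The peak stood 5 nt past the annotated end of PDLIM4-202, a transcript of 246 codons with no LIM pattern that shares the last exon. An AAUAAA starts 32 nt before its end, and no A-rich stretch follows. Both transcripts contain all but the last 5 bases of this peak, which lie in PDLIM4-201 alone, so a tag there cannot be given to one or the other with certainty. The distal end at 132273454 had no PABPC4 peak.

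PDLIM2, known as Mystique, had the lowest 3′ UTR peak of the family. This peak (chr8:22594235-22594282, 12 tags) ended 6 nt before the annotated end of PDLIM2-203 and lay before an A-rich stretch, with no AAUAAA or AUUAAA. It overlaps the terminal exon of 6 of the 7 coding transcripts with a LIM pattern. The most distal annotated end, 3743 nt further on, belongs to PDLIM2-201, which has no LIM pattern, and had no PABPC4 peak. By the rule that calls an end short when it lies before the most distal terminal exon, the PDLIM2 peak counted as a short end beside that of PDLIM7, although it serves transcripts that encode the LIM domain. The second PDLIM2 peak, of 33 tags, was in a non-coding exon before an A-rich stretch. This exon belongs to PDLIM2-220, a retained-intron transcript, and the peak lies in intron 8 of the coding transcript PDLIM2-201. The list also gave both PDLIM2 peaks a second gene ID, that of C8orf58.

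**Figure D4:**
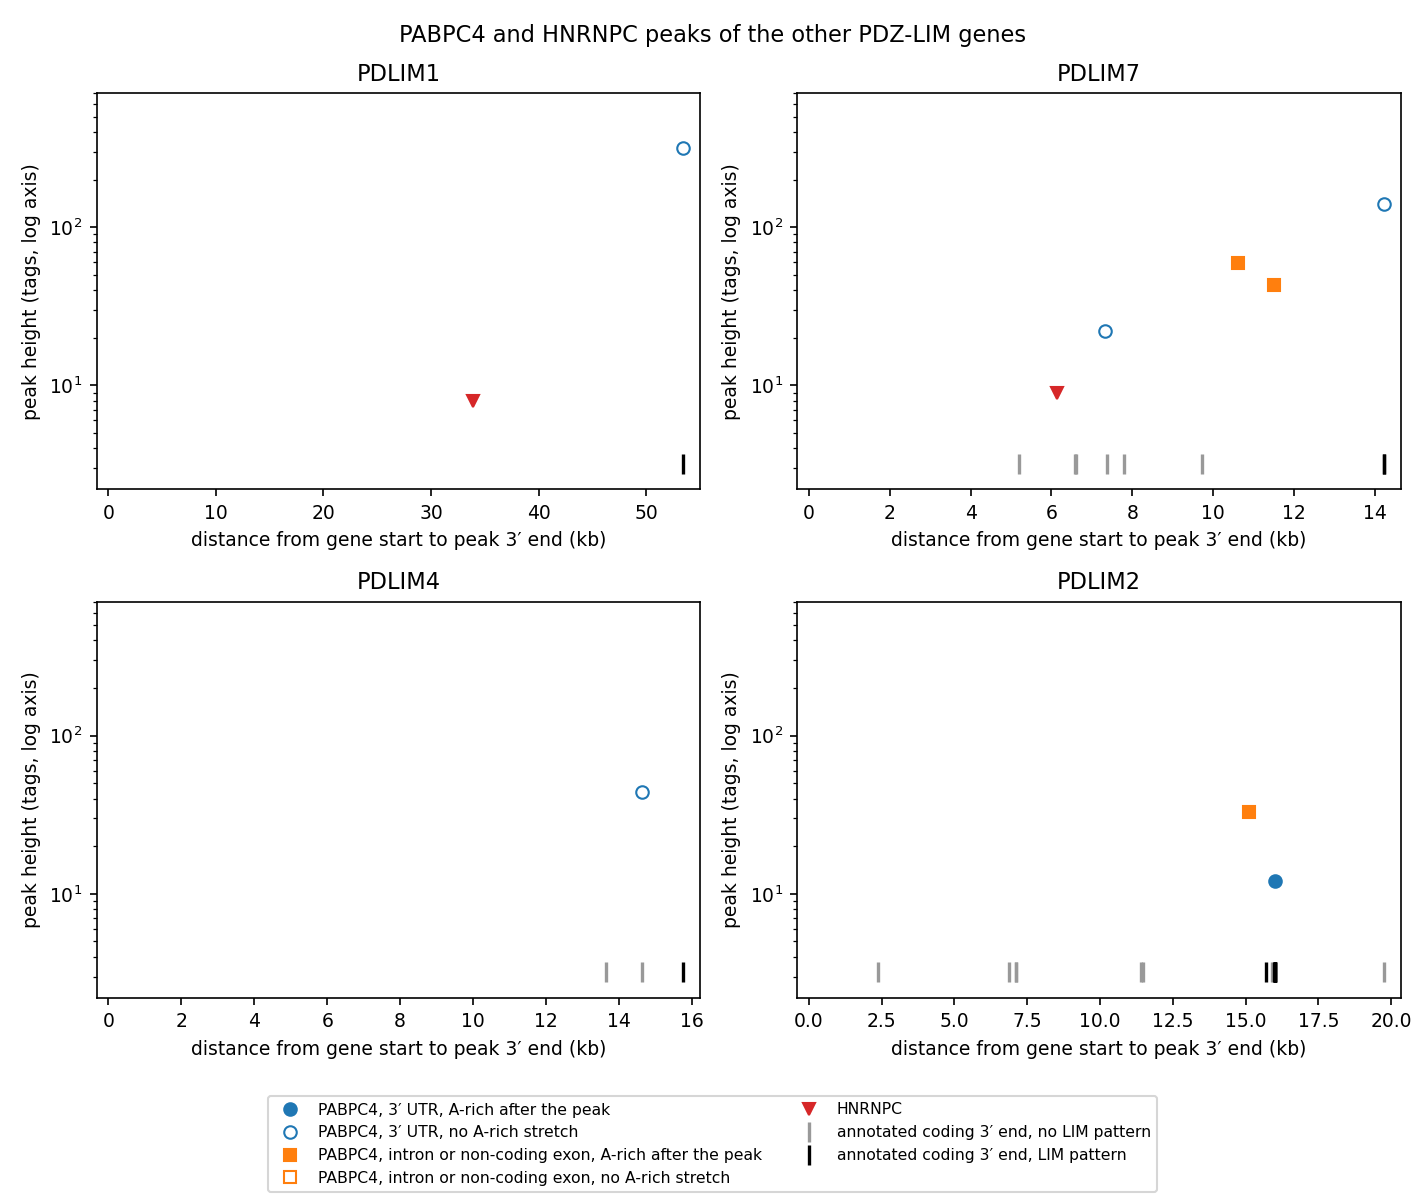
PABPC4 and HNRNPC peaks along PDLIM1, PDLIM7, PDLIM4 and PDLIM2, with the distance from the gene start to the peak's 3′ end in kb on the x axis and peak height in tags on a log y axis, drawn as in the plot of PDLIM5. The tallest peak stands at the last annotated end in PDLIM1 (316 tags) and PDLIM7 (141 tags) and before it in PDLIM4 (44 tags), and HNRNPC had 1 peak in each of PDLIM1 and PDLIM7.

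Among the 3 members with a single 3′ UTR peak, the share of the tallest peak is 100% by construction. PDLIM5 had the lowest share, with 331 of 1089 3′ UTR tags at its tallest peak (30.4%, interval 27.7 to 33.2). The lowest share that is possible falls as a gene has more such peaks, and PDLIM5 had 5, against 2 in PDLIM7. The median share was 61.6% over the 5106 gene IDs with at least 2 PABPC4 3′ UTR peaks, and 2.82% of them had a lower share than PDLIM5. These IDs were not matched to PDLIM5 for the number of peaks, so the comparison partly reflects that number. The tallest peak lay before an A-rich stretch in 33.2% of these IDs, as it did in PDLIM5. Counting only peaks with no A-rich stretch, the 224-tag peak became the tallest in PDLIM5 and held 54.5%. Its 50 nt window stops just short of the A run at the proximal end.

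HNRNPC had 7 peaks in the family, 5 in PDLIM5, 1 in PDLIM1, 1 in PDLIM7 and none in PDLIM2 or PDLIM4. For comparison, 30% of the 13189 gene IDs with a PABPC4 peak also had an HNRNPC peak. Their heights ran from 8 to 13 tags, against a median of 11 over the list, and only the tallest, in PDLIM5, stood above it. By centre, 6 of the 7 lay in introns, where 85.5% of all HNRNPC peaks lay, and 1 in coding sequence. None lay in a 3′ UTR, which allows a share of up to 42.9% with so few peaks, and 4.97% of all HNRNPC peaks did. Only the deposited list was read here, whereas the study drew HNRNPC binding sites along the PDLIM5 3′ UTR. It defined HNRNPC binding by peaks combined over several CLIP experiments, joined with a published iCLIP set. Its sites therefore need not be those of this list. The authors' p-value was at most 0.001 for 4 of the 7, which were 3 in PDLIM5 and the one in PDLIM1. The share of all HNRNPC peaks that met this is not given here, so the count has no comparison.

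All 5 HNRNPC peaks of PDLIM5 lay in intron 2 of PDLIM5-206, which spans 31.6% of the gene, and within 25178 nt of each other. The last of them ended 184018 nt before the proximal PABPC4 peak began, in the first 13.7% of the gene. The longest run of U, in the peak or in the 50 nt before it, is shown for 2 of them and for the PDLIM1 peak, with the run in capitals as T, because this is the sequence that HNRNPC is known to bind.
94467663-94467768, 8 tags: catgtgtcagccaggatttgTTTTTTgtct
94481295-94481416, 10 tags: tattccTTTTTTTTTTTTTTTTTTgagaca
PDLIM1, 95257127-95257220, 8 tags: tgttaggaagcTTTTTTTatttttattttt
The windows lie at chr4:94467739-94467768 and chr4:94481285-94481314 on the plus strand and at chr10:95257227-95257256 on the minus strand. The run of 18 starts 4 nt before the peak at 94481295. A run of at least 5 was present for 5 of the 7 peaks, against 38.8% of all HNRNPC peaks with UUUUU in the peak or the 50 nt before it. The exceptions were the 9-tag PDLIM5 peak at 94462202-94462278 and the 9-tag PDLIM7 peak at chr5:177491468-177491597. GUGUCA, a hexamer in the last 12 nt of 20.1% of HNRNPC peaks, stood there in the PDLIM1 peak alone.

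One HNRNPC peak of PDLIM5 fell at the start of a short isoform's terminal exon. The peak at 94456239-94456330 begins 5 nt before the terminal exon of PDLIM5-203 (94456244-94457184) and covers its first 87 nt. PDLIM5-203 encodes 136 codons and no LIM pattern, and PABPC4 had no peak in its terminal exon. The last 48 nt of the peak occurred 6 times in hg38 without a mismatch, and 1265 places besides its own matched with up to 2 mismatches, these included, so the 8 tags cannot be placed there with certainty. In PDLIM7, the HNRNPC peak stood in intron 4 of PDLIM7-203, 1132 nt before the 22-tag PABPC4 peak of the short end. Annotated ends with no PABPC4 peak lay closer, PDLIM7-206 at 291 nt upstream and PDLIM7-210 at 372 nt downstream of its 3′ end. The coding ends of PDLIM7-215 and PDLIM7-204, which lack a LIM pattern, also lay between it and the short end. Of the 7 HNRNPC peaks, 4 had no near-copy, and those in PDLIM1 and at 94468167 had 8 and 59.

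The distance from each HNRNPC peak to the nearest PABPC4 peak was read on the same strand. Within 500 nt lay 1 of 7 HNRNPC peaks (14.3%, interval 0.361 to 57.9), near the 8.98% of all HNRNPC peaks that did. This was the peak at 94462202, which began 365 nt after the 124-tag intron peak, itself before an A-rich stretch. In PDLIM5, the nearest PABPC4 peak that counted as an end of the gene was the 24-tag intron end for every HNRNPC peak. The gaps to it ran from 5268 nt, for the peak at 94481295, to 30354 nt. The ends in the last exon lay much further downstream. The PDLIM1 peak lay in intron 4, 19470 nt before the gene's only end.

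The pattern of peaks most like that of PDLIM5 was sought over 3959 gene IDs with peaks in both lists. Likeness was the Euclidean distance between log2(1 + summed height) of PABPC4 in 3′ UTRs, in introns and elsewhere, and of HNRNPC. PPP3CA, the catalytic subunit of calcineurin, came first at a distance of 0.37, with 930 3′ UTR tags, 948 intron tags and 45 HNRNPC tags, beside 1089, 1145 and 48 in PDLIM5. PKM, the pyruvate kinase of glycolysis, followed at 0.84, and PHC2, a Polycomb protein, at 0.93. The measure did not use the number of peaks, and PABPC4 and HNRNPC had 25 and 4 peaks in PPP3CA, 7 and 2 in PKM and 11 and 4 in PHC2, beside 24 and 5 in PDLIM5.

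The nearest relatives beyond the PDZ-LIM genes examined here were read from a list of 26 genes, of which 23 had a PABPC4 peak and 10 an HNRNPC peak. Of the 5 other genes that join PDZ and LIM domains, PDLIM3 had a single PABPC4 peak of 16 tags and LDB3, its muscle relative, had none in either list. LMO7 had the tallest 3′ UTR peak of the 5, with 485 tags, and 2 HNRNPC peaks. LIMK1 and LIMK2, kinases that phosphorylate cofilin, had tallest 3′ UTR peaks of 93 and 63 tags and 1 and 0 HNRNPC peaks. All 17 other cytoskeletal LIM genes had a PABPC4 3′ UTR peak, the tallest in LASP1 with 633 tags, and LASP1 alone among the 26 had an HNRNPC peak in a 3′ UTR. Of the alpha-actinins, partners of the PDZ domain, ACTN4 had a 3′ UTR peak of 6570 tags and ACTN1 one of 889, whereas ACTN2 and ACTN3, the muscle forms, had none.

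The label of the cells was checked by PABPC4 3′ UTR peaks of marker genes. All 5 mesenchymal markers (VIM, CD44, ITGB1, AXL and CAV1) had one, with tallest heights from 286 to 10197 tags, highest in VIM, and AXL also had an HNRNPC peak in its 3′ UTR. Of the 5 epithelial and luminal markers, 4 had one, with tallest heights of 170 tags in KRT8, 108 in GATA3, 88 in EPCAM and 56 in CDH1. An A-rich stretch followed the tallest peak of GATA3 and of CDH1, both with a poly(A) signal, and of no mesenchymal marker. ESR1, which encodes the oestrogen receptor, had none. Presence of a peak thus did not set these 4 apart from the mesenchymal markers, although their heights were lower.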

How the data were processed

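CLIP and PAPERCLIP libraries of MDA-MB-231 cells, 2 per protein, were merged by the authors and deposited as 1 peak list each, whose signal value is the peak height in tags. Per the labels and methods, HNRNPC reads were collapsed by molecular identifier, trimmed with cutadapt, aligned to hg38 with BWA 0.7.17 and called with the CTK peak caller. The labels name the same tools for PABPC4, whose further steps are not given in the sources used here. The total of tags behind either list is unknown, so depth is known only as height. Heights are not comparable between the lists. Each position was counted once, which left out 6271 PABPC4 and 1281 HNRNPC repeats under further gene IDs, and gene IDs were named through RefSeq (13155 of 13189 and 4090 of 4098).

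Features were taken at the peak's centre from GENCODE 44, with sequence from hg38 by pysam 0.24.0 in Python 3.11.15. Shares have 95% exact Clopper-Pearson intervals (scipy 1.17.1), and a share of 0 allows up to 3 counts. Tags need not be independent molecules, so these cover counting error only. LIM patterns were counted in translated coding sequence by the spacing of cysteine and histidine. Near-copies were sought for the 48 nt up to each peak's 3′ end. The classification was tested on simulated data. All 5 genes are named, with relatives chosen by list, tallest 3′ UTR peak or HNRNPC 3′ UTR peak. The genes, lists and rules were chosen with earlier results of these data known. Some peak windows are not reported here.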

Additional observations from a re-analysis of the deposited data

How the results depend on the processing

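No paired analysis was possible because each list pools both samples of its protein, and leaving out a replicate could not be run for the same reason. Of 56 alternative values, 39 stayed within 1.5 times the count or within the interval of the share. At peaks with a height at or above the list median, the 8 ends became 5, the 2 short isoform ends 0, the 7 HNRNPC peaks 1, and the 1 HNRNPC peak near a PABPC4 peak 0. At the authors' p of at most 0.001, 4 HNRNPC peaks were left. Taking every peak as an end gave 32 ends. The proximal share of PDLIM5 became 74.8% with summed heights and 54.5% with summed heights and no peaks before an A-rich stretch, a setting chosen after seeing the data. It had no value when such peaks were left out of the first-peak rule. The tallest share of PDLIM5 became 54.5% without such peaks and 14.8% over all its peaks, that of PDLIM7 53.2% and that of PDLIM2 26.7% over all peaks. Within 24 nt, 1 short isoform end was left. With a window of 20 nt, 10 of 17 family intron peaks before an A-rich stretch were left. HNRNPC peaks near a PABPC4 peak numbered 0 within 100 nt, 2 within 1000 nt, and 0 without PABPC4 peaks before an A-rich stretch. Leaving out annotated ends before an A-rich stretch, also chosen after seeing the data, gave 6 ends. The HNRNPC statements rest on low heights, with 6 of the 7 peaks below the list median.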
